A study of Arabidopsis thaliana with 6 samples.

Results

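NAC transcription factor genes were examined for binding by the stem cell regulator WUSCHEL (WUS) and for changes in 2 histone marks in seedlings of Arabidopsis thaliana. Members were all genes whose symbol or synonym in the annotation is NAC or ANAC followed by a number. CUC1, CUC2 and CUC3, the boundary genes of the family, were set aside, which left 97 of 37899 annotated nuclear genes, all among the 27444 protein-coding genes. The primary symbol met the rule for 81 members and only a synonym for 16. Of the 97 members, 31 lie on chromosome 1, 8 on chromosome 2, 21 on chromosome 3, 10 on chromosome 4 and 27 on chromosome 5. Genes are called here by their common name or their NAC number, since the annotation gives some symbols, such as NAC2 and NAC3, to more than 1 locus.

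NAC proteins are plant-specific transcription factors that share a conserved DNA-binding domain near the amino terminus and carry variable regulatory regions behind it. The family takes its name from NAM, ATAF and CUC, and its members are known for roles in drought and salt responses, leaf senescence, the thick walls of xylem vessels and fibres, root cap maturation and organ boundaries. Some members are anchored in membranes and reach the nucleus after cleavage, and some are targets of the microRNA miR164. H3K9/K14 acetylation is a mark of active genes, and H3K27me3 is the mark set by Polycomb repressive complexes.

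Whole seedlings were collected 5 days after germination, after 2 h with 25 µM dexamethasone in all groups according to the labels. The WUS-GR line carries pUBI10::mCherry-GR-linker-WUS, in which a glucocorticoid receptor domain holds WUS outside the nucleus until dexamethasone is added. Untransformed Col-0 plants were the control. The ubiquitin promoter is active in most tissues, so the fusion was present far outside the few meristem cells that normally make WUS. Chromatin was recovered with RFP-trap, which binds mCherry, with an antibody to H3 acetylated at K9 and K14, or with an antibody to H3K27me3. The 2 genotypes and 3 pull-downs gave 6 lists of windows, 1 for each group and made from pooled immunoprecipitations, so no replicate error or test between groups exists for any value below.

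The lists held 42402 windows of 100 bp for RFP-trap in WUS-GR and 706 in Col-0, and between 6023 and 12975 windows of 500 bp for the histone marks. Each window is one in which that genotype exceeded the other, and runs of adjacent windows were joined into regions. Histone regions of the Col-0 lists are called lost and those of the WUS-GR lists gained, and where opposite calls for a mark lay less than 73 bp apart both were dropped. A gene counted as having a region when at least 1 bp of it lay in the gene window, from 2500 bp upstream of the transcription start site (TSS) to 1000 bp past the gene end, and genes with a WUS-GR RFP-trap region are called bound. The lists carry no score or read count, so the depth behind them is unknown, and the 95% Wilson intervals given with shares cover counting error only.

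WUS-GR regions at 19 NAC genes contained CACGTG, the core of the G-box, a word recognised by bZIP and bHLH factors and known as a WUS binding word. Below is 1 stretch of 30 bases from a WUS-GR region of each member of the ATAF stress group (ATAF1, ATAF2, NAC032, NAC102) and of the NAC019, NAC055 and RD26 stress group, and of NAP and NTL6, to show the word in place at genes to which the results return. Sequences are from the TAIR10.1 reference, read 5′ to 3′ on the coding strand of the gene, with CACGTG in capitals.
ATAF1 (plus strand, chr1:268226-268255): gcgtcatccaccCACGTGtgttctagaagc
ATAF2 (minus strand, chr5:2860369-2860398): tctgttttgccgCACGTGcttgaaaatccc
NAC032 (plus strand, chr1:29099004-29099033): acattccggctcCACGTGgcatagatcgaa
NAC102 (minus strand, chr5:25528124-25528153): attagtccaagcCACGTGtaaacctcagct
NAC019 (minus strand, chr1:19698591-19698620): atctaactgacaCACGTGtcagaattcaaa
NAC055 (plus strand, chr3:5234106-5234135): atcattcacttaCACGTGttttttcttctt
RD26 (minus strand, chr4:13709860-13709889): taactctcccaaCACGTGtacaattcacac
NAP (plus strand, chr1:26121826-26121855): atacttttaggtCACGTGtttagaggtgaa
NTL6 (minus strand, chr3:18365133-18365162): tccattcctttcCACGTGtcattacatcat

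These stretches are from genes chosen for display. Their centres were at 174.5 bp in ATAF2, 247.5 bp in ATAF1 and 142.5 bp in NAC102, each within the 5′ UTR. They were upstream of the TSS in the other 6 genes, at -123.5 bp in NAC019 and -820.5 bp in NAC032. In the members not shown, centres ranged from -2794.5 bp in NTL8 to 2609.5 bp in NAC048, so the 19 did not all lie near the TSS. Of the 19 members with such a stretch, 9 read CACGTGT on either strand around the chosen copy.

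WUS-GR regions were present at 52 of 97 NAC genes, or 53.6% (43.7% to 63.2%), against 38.1% of protein-coding genes and 33.5% of all annotated genes. The Col-0 RFP-trap list, which holds windows where Col-0 exceeded WUS-GR and so not the signal that both genotypes shared, placed a region at 2 NAC genes (2.06%, against 2.39% of protein-coding genes). Both were the same single window, shared by the neighbours NAC077 and NAC078, and neither of these genes was bound in WUS-GR. Bound members occurred on every chromosome, with 17 on chromosome 1, 5 on chromosome 2, 10 on chromosome 3, 8 on chromosome 4 and 12 on chromosome 5. The median length of the bound members was 1968.5 bp and that of the unbound members 1909.0 bp, so the 2 sets were of similar length.

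**Figure D1:**
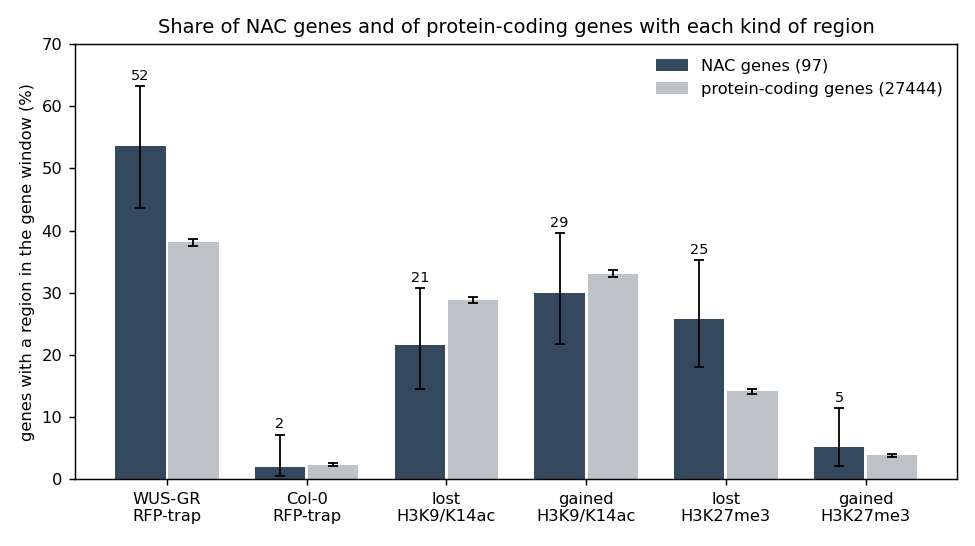
Share of the 97 NAC genes (dark bars) and of the 27444 protein-coding genes (light bars) with each kind of region in the gene window, in percent, with 95% Wilson intervals and the number of NAC genes above each dark bar. The NAC share is above the protein-coding share for WUS-GR regions (53.6% against 38.1%) and for lost H3K27me3 (25.8% against 14.2%), and below it for lost H3K9/K14ac (21.6% against 28.8%), which turns with regions of at least 1000 bp (9.28% against 8.21%).

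Shares of genes with a region near the TSS are given over all genes, bound or not. A WUS-GR region covered the TSS itself in 18 members, or 18.6% (12.1% to 27.4%), against 11.3% of protein-coding genes. Within 250 bp of the TSS a region was found at 27.8% of members against 16.8%, within 500 bp at 33% against 19.7%, and within 1000 bp at 40.2% against 24.2%. The 18 genes with a covered TSS included the stress regulators ATAF2, NAC032, NAC102, NAC019, NAC055 and RD26, the senescence regulators NAP and VNI2, and the vessel regulators VND1 and VND2. The median midpoint of the 83 gene-region pairs was -206.5 bp from the TSS (-577.5 to -71.5 by order statistics). For protein-coding genes it was -146.5 bp, closer to the TSS and within that interval. Of the 83 pairs, 66.3% lay upstream, against 59.1% for protein-coding genes.

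In the profile along the gene, coverage by WUS-GR regions peaked at -150 bp in NAC genes, where 22.7% of members were covered, and at -50 bp in protein-coding genes, where 11.6% were covered. A further rise of the NAC profile stood around -800 bp, with 15.5% of members covered against 5.49% of protein-coding genes. At 600 bp into the gene no member was covered by WUS-GR regions, and 0.82% of protein-coding genes were. The histone profiles first reached their highest NAC values inside the gene, at 500 bp for lost (7.22%) and gained (12.4%) H3K9/K14ac and at 550 bp for lost H3K27me3 (13.4%). The highest protein-coding values were 7.08% at 500 bp for lost H3K9/K14ac, 9.19% at 450 bp for gained H3K9/K14ac and 3.09% at 550 bp for lost H3K27me3.

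**Figure D2:**
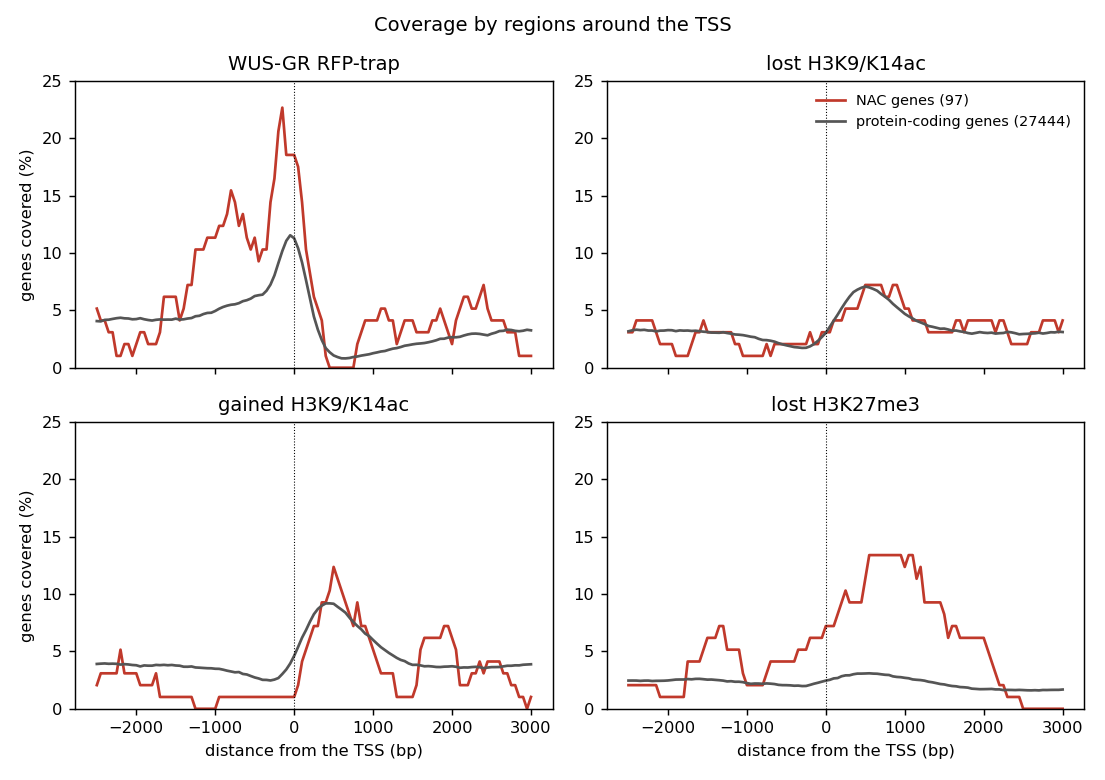
Percent of genes covered by WUS-GR regions and by changed histone regions at each distance from the TSS in bp, for the 97 NAC genes (red) and the 27444 protein-coding genes (grey). WUS-GR coverage of NAC genes is highest at -150 bp (22.7%), and lost H3K27me3 first reaches its highest value at 550 bp, at 13.4% in NAC genes and 3.09% in protein-coding genes.

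The length of WUS-GR sequence in the gene window ranged from 100 to 2300 bp over the 52 bound members, with a median of 401 bp against 400 bp in bound protein-coding genes. At least 1000 bp was reached by 11 of them (21.2%, against 17.3% of bound protein-coding genes). More than 1 separate region was seen at 23 members (44.2%, against 37.3%), and 4 regions each were seen at NAP, NAC032, NAC047 and VND2. The largest values belonged to NAC032 with 2300 bp, VNI2 with 2245 bp, NAP with 2021 bp and ATAF2 with 2000 bp, each higher than in at least 99.2% of protein-coding genes. RD26 followed with 1500 bp, NAC055 with 1400 bp, VND2 with 1256 bp, NTL8 with 1171 bp, NAC004 with 1100 bp and NAC047 with 1034 bp.

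**Figure D3:**
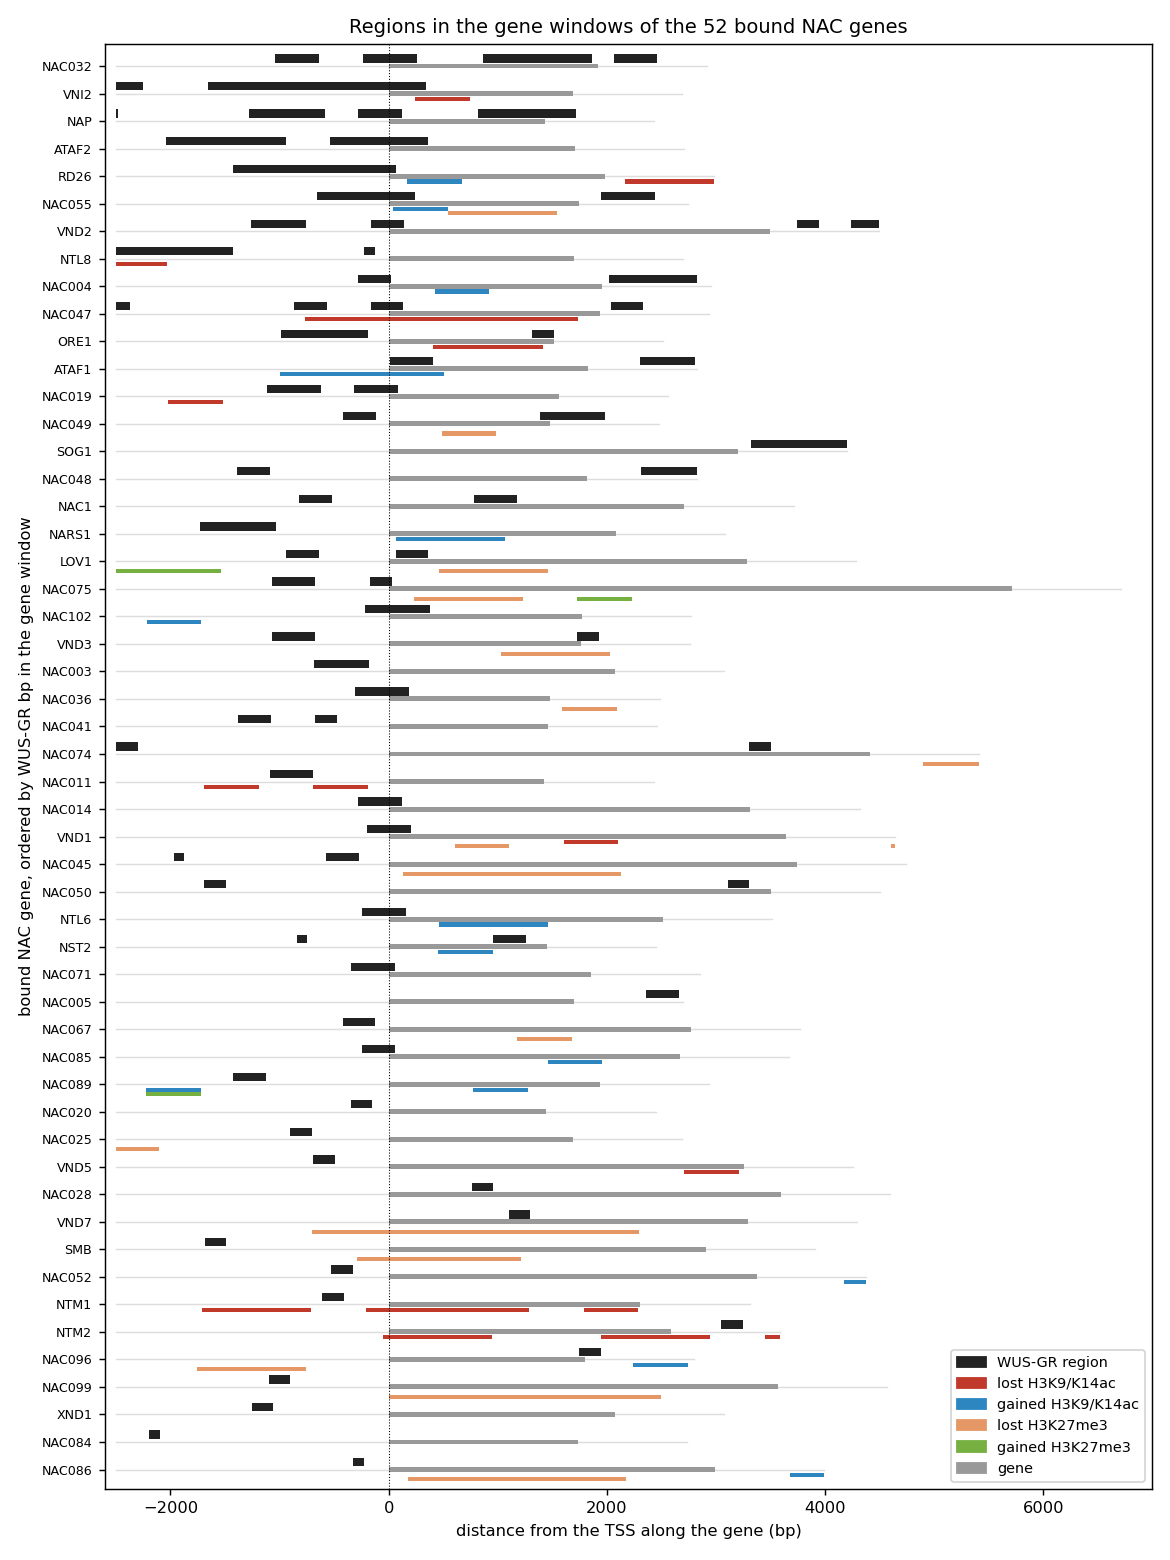
Regions in the gene windows of the 52 bound NAC genes, 1 row a gene, by distance from the TSS in bp along the gene, ordered by WUS-GR bp. Black blocks are WUS-GR regions, thin coloured blocks lost or gained histone regions, and grey bars the genes. NAC032 at the top holds 4 WUS-GR regions with 2300 bp in all and no histone region, and NAC047 holds a lost H3K9/K14ac region of 2500 bp across its TSS.

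Neighbouring genes can share a region, since the gene windows overlap. When each region was given to 1 gene by its midpoint, 40 members stayed bound, or 41.2%, against 23% of protein-coding genes. The other 12 included ATAF1, SOG1, VND5, SMB, XND1 and NAC099, whose regions were assigned to another locus. ATAF1's 5′ UTR region, for instance, lay inside ATAF1 and over an antisense non-coding locus that took it. For 4 of the 12, among them ATAF1 and VND5, such a locus was an annotated long non-coding RNA. By midpoint, lost H3K9/K14ac was assigned to 12 members (12.4%, against 16%) and gained H3K9/K14ac to 17 (17.5%, against 17.9%). Lost H3K27me3 was assigned to 17 members (17.5%, against 7.29%), gained H3K27me3 to 3 (3.09%, against 1.92%) and Col-0 RFP-trap regions to 0 (against 1.32%).

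All 4 stress regulators of the ATAF type were bound (100%, 51% to 100%, against 38.1% of protein-coding genes). ATAF1, which acts in abscisic acid and drought responses, had 2 regions, of 400 bp centred in its 5′ UTR and of 500 bp past its end. ATAF2, known from wounding and pathogen responses, had regions of 900 bp across its TSS and of 1100 bp farther upstream. NAC032, another stress-induced member, had regions of 400, 500, 1000 and 400 bp along the whole gene, from upstream to past its end, and NAC102, which acts under low oxygen, had 1 region of 600 bp across its TSS. None of these 4 genes had lost H3K9/K14ac, lost H3K27me3 or gained H3K27me3, against 28.8%, 14.2% and 3.88% of protein-coding genes. ATAF1 and NAC102 had gained H3K9/K14ac (50%, 15% to 85%, against 33.1%). By midpoint, both gained regions were assigned to another locus.

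NAC019, NAC055 and RD26 (NAC072), related genes that act in abscisic acid and jasmonate responses, were all bound as well (100%, 43.9% to 100%, against 38.1%). NAC019 had regions of 400 bp at -118.5 bp and of 500 bp at -868.5 bp, with 500 bp of lost H3K9/K14ac farther upstream at -1768.5 bp. NAC055 had a region of 900 bp at -206.5 bp and another of 500 bp past the gene end, with 500 bp of gained H3K9/K14ac at the start of the gene and 1000 bp of lost H3K27me3 behind it. RD26 had 1 unbroken region of 1500 bp upstream of and across its TSS, and was the only bound member with both lost and gained H3K9/K14ac. Its gained region of 500 bp began 100 bp from the WUS-GR region, inside the gene, and its lost region lay past the gene end and was nearer to the next gene.

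Of 8 senescence regulators, 3 were bound, NAP, VNI2 and ORE1, which at 37.5% is near the 38.1% of protein-coding genes. NAP, which promotes leaf senescence through abscisic acid, had regions of 700 bp at -929.5 bp, of 400 bp at -79.5 bp and of 900 bp over its 3′ end, beside 1 at the edge of its window, and no histone region. VNI2 (NAC083), which binds the vessel regulator VND7 and also delays senescence, had an unbroken region of 2000 bp over its promoter and TSS. ORE1 (NAC092), an age-dependent promoter of senescence and a target of miR164, had 800 bp upstream of its TSS and 200 bp over its 3′ UTR. Unbound were JUB1, which delays senescence, and ORS1, NAC016, NAC046 and NAC087. In this group 4 genes had lost H3K9/K14ac (50%, 21.5% to 78.5%, against 28.8% of protein-coding genes) and 3 had gained it (37.5%, 13.7% to 69.4%, against 33.1%). By midpoint, the lost region of NAC016 and the gained region of ORS1 were assigned to another locus. None had lost H3K27me3 (0%, 0% to 32.4%, against 14.2%), and NAC046 had gained H3K27me3 (12.5%, 2.24% to 47.1%, against 3.88%).

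Among the 10 switches for vessel and fibre walls, 6 were bound (60%, 31.3% to 83.2%, against 38.1% of protein-coding genes), namely NST2, VND1, VND2, VND3, VND5 and VND7. VND2 had regions of 300 bp at -9.5 bp and of 500 bp at -1009.5 bp as well as 2 past its end, and VND1 had 400 bp across its TSS. VND7, the switch for protoxylem vessels, had only 200 bp, within an intron. NST1, VND4, VND6 and SND1 were not bound, and VND4 and SND1 had no region of any kind. Lost H3K27me3 was listed at 4 of the 10 genes (40%, 16.8% to 68.7%, against 14.2%), VND1, VND3, VND7 and NST1.

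Of the other wall-formation genes, XND1, a negative regulator of xylem differentiation, had 200 bp at -1156.5 bp, and NAC075 had regions of 400 bp at -871.5 bp and of 200 bp across its TSS. SND2 and SND3 were not bound, so the bound share was 50% (15% to 85%), against 38.1% of protein-coding genes. All 3 phloem genes were bound (100%, 43.9% to 100%, against 38.1%). These were NAC020 with 200 bp, and NAC045 with 400 bp and NAC086 with 100 bp, which both direct the loss of the nucleus in sieve elements. Only 1 of these 3 stayed bound with regions of at least 300 bp. Of the 4 root cap genes only SMB, which drives root cap maturation, was bound (25%, 4.56% to 69.9%, against 38.1%). It had 200 bp at -1587.5 bp, and FEZ, BRN1 and BRN2 were not bound.

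Of the 9 genes listed as membrane-bound, 4 were bound (44.4%, against 38.1%), and with the related NTM1, which was not on the list, 5 of 10. By midpoint, 2 of the 9 were bound, against 23% of protein-coding genes. NTL8, linked to salt responses and flowering time, had 100 bp at -179.5 bp and part of a long upstream region of 2700 bp that was nearer to another gene. NTL6, linked to cold and pathogen responses, had 400 bp across its TSS, and NAC089 and NTM2 each had regions farther from the TSS. NAC1, which acts in lateral root formation and is a target of miR164, had regions of 300 bp and 400 bp, and the miR164 targets NAC079 and NAC100 were not bound. NARS1 and NAC025 of the 3 seed genes, and SOG1 and NAC085 of the 3 DNA damage genes, were bound. Each share was 66.7% (20.8% to 93.9%), against 38.1% of protein-coding genes. SOG1, the master regulator of the DNA damage response in plants, had 887 bp, all past its gene end.

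**Figure D4:**
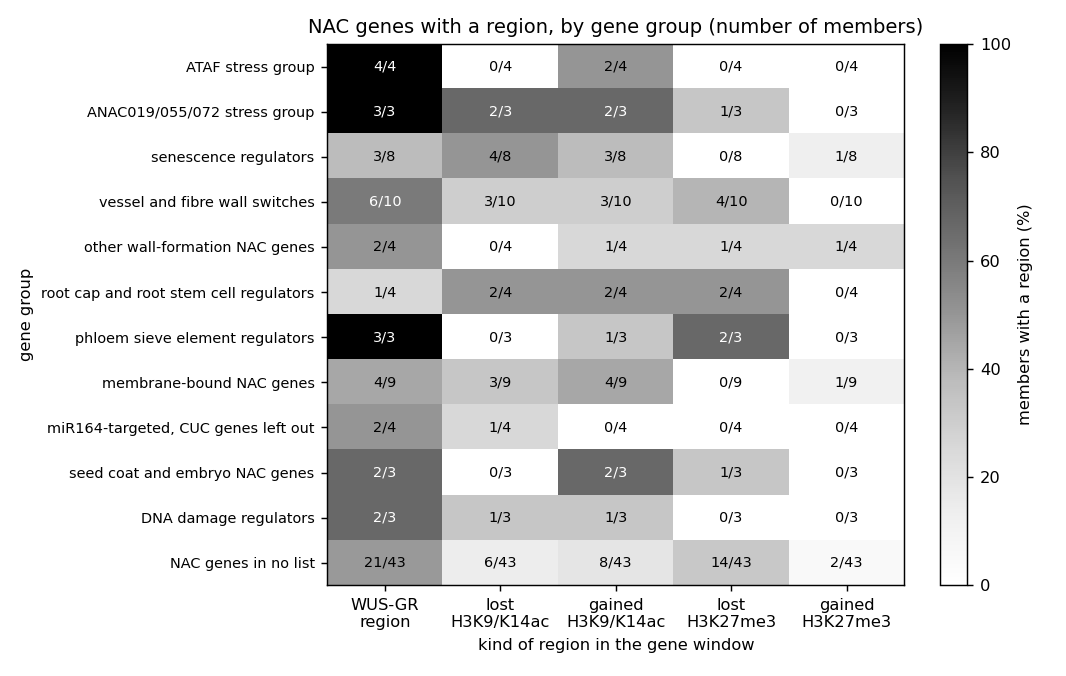
Number of members with each kind of region, of the members of each gene group, with the shade of each cell showing the percent. All members of the ATAF, NAC019-type and phloem groups have a WUS-GR region, against 38.1% of protein-coding genes, though 1 of 3 phloem genes does with regions of at least 300 bp. Lost H3K27me3 is at 4 of 10 vessel and fibre switches.

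Outside these groups, 21 of 43 members were bound (48.8%, 34.6% to 63.2%), and inside them 31 of 54 (57.4%, 44.2% to 69.7%), with overlapping intervals and 38.1% among protein-coding genes. NAC047, which promotes the upward bending of leaves in flooded plants, had 4 regions. LOV1, which delays flowering, had 600 bp in regions of 300 bp on both sides of its TSS. NAC036, NAC071 and NAC014 each had a single region across the TSS. NAC050 and NAC052, partners of the histone demethylase JMJ14, shared 1 region of 200 bp between them.

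H3K9/K14ac was lost at 21 members, 21.6% (14.6% to 30.8%) against 28.8% of protein-coding genes, and gained at 29, 29.9% (21.7% to 39.6%) against 33.1%. With regions of at least 1000 bp the order turned for lost H3K9/K14ac, at 9.28% of members against 8.21%, and widened for gained H3K9/K14ac, at 4.12% against 11.7%. Among the 52 bound members, 11 had lost H3K9/K14ac (21.2%, against 34.6% of bound protein-coding genes) and 13 had gained it (25%, against 38.3%). Among the 45 unbound members these were 10 (22.2%, against 25.3% of unbound protein-coding genes) and 16 (35.6%, against 29.9%). Either change was seen at 23 bound members, 44.2% (31.6% to 57.7%), against 61.2% of bound protein-coding genes. For unbound members the share was 46.7%, against 47.6% of unbound protein-coding genes. The intervals of bound and unbound NAC genes for changed acetylation overlapped, while among protein-coding genes the bound share was higher.

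The longest single region of lost H3K9/K14ac was that of NAC047, with 2500 bp. Summed over the gene window, most was lost at NTM1, a regulator of cell division, with 3000 bp in 3 regions. Its neighbour NTM2 had 2139 bp, also in 3 regions, 2 of them shared with NTM1. ORS1 had 1500 bp and NAC017, a regulator of mitochondrial stress responses, 1042 bp. WUS-GR regions shared sequence with lost H3K9/K14ac at 4 members (7.69%, against 7.42% of bound protein-coding genes). These were NAC047, with 300 bp shared at its TSS and 200 bp upstream, NTL8 with 500 bp in an upstream region that reached past the gene window, VNI2 with 100 bp in the 5′ UTR, and ORE1 with 100 bp at the 3′ end. Lost regions overlapped the gene itself in 11 members (11.3%, against 16.5%) and gained regions in 19 (19.6%, against 19.5%). Over the 11 bound members with lost H3K9/K14ac, the median spacing between the closest WUS-GR and lost region was 100.0 bp (0 to 3200 bp). NTM1 and NTM2, both at 100 bp, share the regions behind that spacing, so it was counted for each. The medians for gained H3K9/K14ac and for lost and gained H3K27me3 were longer. No spacing was taken over bound protein-coding genes. Both regions had to reach the same gene window, which limits the spacing.

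Gained H3K9/K14ac summed over the gene window was longest at ATAF1 with 1500 bp in 1 region, followed by NAC038 with 1004 bp in 3 regions. With 1000 bp each, 7 members tied behind them, namely NARS2, JUB1, NARS1, NTL6, NAC087, NAC088 and NAC089. NARS1 and NARS2 act together in the seed coat. ATAF1 and NAC055 were the only bound members where WUS-GR and gained regions shared sequence (3.85%, against 6.6%), with 400 bp and 200 bp in the 5′ UTR. At the membrane-bound regulator NTL6, 1000 bp of gained H3K9/K14ac began 300 bp from its WUS-GR region, and at NST2 the gained and the WUS-GR region were adjacent.

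H3K27me3 was lost at 25 members, 25.8% (18.1% to 35.3%) against 14.2% of protein-coding genes. Bound members had it in 16 cases (30.8%, 19.9% to 44.3%, against 13.4% of bound protein-coding genes) and unbound members in 9 cases (20%, against 14.7%). A lost region overlapped the gene itself in 17 members (17.5%, against 6.82%). The longest single regions, of 3000 bp, were at VND7 and NST1, though only 1416 bp of the latter lay in the gene window of NST1. Regions of 2500 bp at NAC099 and of 2000 bp at NAC045, NAC057, NAC086 and NAC090 followed, and VND7, NAC099, NAC045 and NAC086 were bound. At least 1000 bp in the gene window was lost at 16 members (16.5%, against 5.54% of protein-coding genes), 10 of them bound (19.2% of bound members, against 4.73% of bound protein-coding genes). WUS-GR regions shared sequence with lost H3K27me3 at VND7 and VND3 only (3.85% of bound members, against 2.16%), with 200 bp each.

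Gained H3K27me3 was listed at 5 members, 5.15% against 3.88% of protein-coding genes, with 963 bp at LOV1, 500 bp at NAC046, NAC075 and NAC089, and 163 bp at NAC082. Of these, 3 were bound (5.77% of bound members, against 3.47% of bound protein-coding genes) and 2 were not (4.44%, against 4.13%). LOV1 and NAC075 carried both a lost and a gained region, at different positions. Without the 73 bp rule, gained H3K27me3 was listed at 32 members (33%, against 18.1%) and lost H3K27me3 at 44 (45.4%, against 27.6%), so the rule left 5 of 32 members with a gained call, and the share without the rule was also above that of protein-coding genes for both directions.

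Bound genes without any histone region numbered 17 (32.7%, 21.5% to 46.2%, against 31.5% of bound protein-coding genes). Among them were NAC032, NAP, ATAF2 and VND2, 4 of the 10 members with most WUS-GR sequence. No share was taken over protein-coding genes with as much WUS-GR sequence. The median over these 17 was 500 bp of WUS-GR sequence. Before the 73 bp rule, 8 of them had a histone region and 9 had none. No region from any list was found at 14 members (14.4%, 8.8% to 22.8%, against 25.5% of protein-coding genes), namely NAC001, VND4, SND3, SND1, NAC013, NAC058, NAC060, NAC063, NAC064, NAC080 (also called NAC079), TIP, NAC094, NAC100 and NAC103.

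Some NAC genes lie next to each other. Within 10 kb of each other were 13 pairs, made of 24 members, and 10 pairs had both genes on the same strand. Of the 24 members 14 were bound, with shared regions counted for both genes, beside 52 of all 97 members (53.6%). A WUS-GR region was shared by 4 pairs, NAC004 with NAC005, NAC048 with NAC049, NAC050 with NAC052, and NTM1 with NTM2. The bound calls of NAC005, NAC052, NTM1 and NTM2 rest on the shared region alone. NAC004, NAC048, NAC049 and NAC050 each had another region as well. The stress gene NAC055 and the seed gene NARS1, 7235 bp apart, had separate regions and no shared one, and the same held for NARS2 and NAC019, of which only NAC019 was bound.

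The word CACGTG, which reads the same on both strands, was found in 32 of 333 WUS-GR windows of NAC genes, 9.61% (6.89% to 13.3%). This interval treats windows of the same gene as separate counts, and so may be too narrow. It was in 6.15% of all 42402 WUS-GR windows, in 1.01% of the other 100 bp windows at NAC genes and in 0.94% of the other windows at protein-coding genes. GC content was 35.1% in the WUS-GR windows of NAC genes and 34.2% in the other windows at these genes. At the gene level, 19 of 52 bound members held the word in a region (36.5%, against 32.2% of bound protein-coding genes).

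The split below was chosen from these same values, so it describes them and tests nothing. Its intervals treat windows of the same gene as separate counts. The 7 stress genes of the ATAF group and of the group of NAC019, NAC055 and RD26, joined after these values had been seen, all held CACGTG, in 19 of their 96 windows (19.8%, 13.1% to 28.9%). The other members held it in 13 of 237 windows (5.49%, 3.23% to 9.16%), against 6.15% over all WUS-GR windows. NAC032 had 7 copies in its regions, NAC019 had 4, NAC055 and NAC102 had 3 each, ATAF1 and RD26 had 2 each, and ATAF2 had 1. Outside the stress groups NTL8 had 4 copies, in a region that extends beyond its window. There 12 of 45 bound members held the word (26.7%, against 32.2% of bound protein-coding genes). The 12 include NAC047, whose copy lay at -2635.5 bp, beyond its gene window. Median WUS-GR sequence was 1400 bp in the 7 stress genes and 400 bp in the other bound members, and longer sequence has more room for the word.

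**Figure D5:**
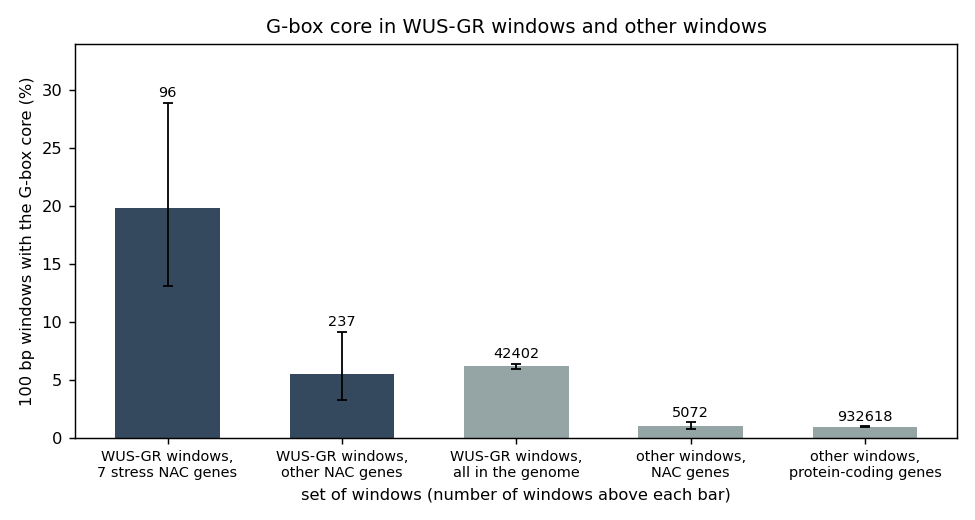
Percent of 100 bp windows that hold the G-box core, with 95% Wilson intervals and the number of windows above each bar, for WUS-GR windows (of the 7 stress NAC genes, of the other NAC genes and of the whole genome) and for other windows. The 7 stress genes, joined after these values had been seen, stand at 19.8%, the other NAC genes at 5.49% and all WUS-GR windows at 6.15%. Windows outside WUS-GR regions are near 1%. The intervals treat windows of the same gene as separate counts.

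The 7 other words searched are not all of the length of CACGTG, so their shares are not ranked against it. Each is set beside all WUS-GR windows and the other windows at NAC genes. ACGCGC was in 2.1% of the WUS-GR windows of NAC genes and in 2.15% of all WUS-GR windows, against 0.256% of the other windows at NAC genes. GAGAGAGA was in 4.5% and 4.3%, against 1.95%. TGAATGAA, a word bound by WUS in earlier work, was in 1.8% (0.828% to 3.87%) and 1.29%, against 0.789%, and CATGTG was in 4.5%, against 7.46% of all WUS-GR windows and 4.93% of the other windows at NAC genes. TGTCTC, the core of auxin response elements, was in 6.61% and 6.36%, against 4.87%, TGTCGG in 2.4% and 2.66%, against 1.91%, and AAACCCTA in 0.901% and 0.863%, against 1.46%. All words were counted on both strands.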

How the data were processed

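ChIP-seq windows came from 6 groups, 1 list each, grouped by sample title. Per the labels and the study's methods, the authors mapped reads to TAIR10 with BWA, checked them with FastQC, and called windows that differed between the genotypes with hiddenDomains above a posterior threshold. The files the authors deposited hold positions only (other than any score or count): chromosome, start and end of each window, so depth is unknown. Window starts and ends were checked against the reference chromosomes (TAIR10.1, NCBI annotation), and all lay within them.

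Adjacent windows were merged, and lost and gained regions of a mark closer than 73 bp were removed as in the study's methods. The authors used PAVIS for annotation, and here regions were set against gene windows (2500 bp upstream to 1000 bp past the gene end). Shares carry Wilson intervals of 95%. With 1 list per group no test was run. Alternatives were assignment by midpoint, 1000 bp upstream, an overlap of 100 bp, primary symbols only, no 73 bp rule, and minimum region lengths of 300 bp (RFP-trap) and 1000 bp (histone).

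The members, gene groups and words were chosen with earlier results of these data known. Membership of the gene groups was written from background knowledge and checked against the annotation by locus and name only. Named with values were members of 11 gene groups that were bound, the 10 members with most WUS-GR sequence, the 5 with most of each histone change, members with shared WUS-GR and histone sequence or a Col-0 RFP-trap window, and neighbouring pairs. Other names were chosen after their values were seen. NTL9 was left out of the membrane-bound group because it did not meet the name rule. Methods were tested on simulated data, with Python 3.11.15, numpy 2.4.6, scipy 1.17.1 and matplotlib 3.10.9.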

Additional observations from a re-analysis of the deposited data

How the results depend on the processing

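Over 43 alternatives for the 10 main results, 25 stayed within 1.5 times the main count or within the interval of the main value, and 18 moved beyond. Set against protein-coding genes, the order turned for lost H3K9/K14ac with regions of at least 1000 bp (9.28% against 8.21%), for Col-0 RFP-trap regions with primary symbols only (2.47% against 2.39%) and for the median distance with regions of at least 300 bp (-128.5 against -178.5 bp). The number of bound NAC genes was among those that stayed, at 37 to 52 members under every alternative. Its gap to protein-coding genes narrowed with regions of at least 300 bp, to 38.1% against 30%, from 53.6% against 38.1% in the main setting. With assignment by midpoint, Col-0 RFP-trap regions were at 0 members, lost H3K9/K14ac at 12, gained H3K9/K14ac at 17 and gained H3K27me3 at 3, and bound members with lost or gained H3K9/K14ac numbered 6 and 7. With 1000 bp upstream, Col-0 RFP-trap regions were at 1 member and gained H3K27me3 at 3. With all merged regions kept, lost H3K9/K14ac was at 35 members (46% of protein-coding genes), lost H3K27me3 at 44 and gained H3K27me3 at 32, and bound members with lost or gained H3K9/K14ac numbered 18 and 21. With histone regions of at least 1000 bp, lost H3K9/K14ac was at 9 members, gained H3K9/K14ac at 4 (4.12% against 11.7%) and gained H3K27me3 at 1. CACGTG was in 27.8% of merged regions and in 16.5% of windows widened on both sides, longer sequences than the windows. Fewer or shorter intervals enter under the stricter settings by construction. For the 13 other results, 41 of 52 alternatives stayed and 11 moved, all of them counts of bound genes in the wall-formation, root cap, phloem, membrane-bound, seed and DNA damage groups, each of 9 members or fewer. No paired analysis was possible because there was 1 list in each group. Without read counts, a window just past the threshold cannot be told from a strong one.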
